A study of Mus musculus with 16 samples.

Results

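Very long genes are few, and the 230 protein-coding genes of the mouse that span over 500 kb are described here through the accessible sites inside them that differed between the non-neuroendocrine and the neuroendocrine cells of small cell lung cancer (SCLC). A peak was taken when its centre lay inside such a gene of the basic GENCODE annotation and over 1 kb from every annotated transcription start site, whichever of both deposited lists it came from. Start sites were those of the transcripts in that annotation, whereas the span was that of the gene entry, and these can disagree. A peak at the annotated start of its gene can therefore be a member, as in *Adamtsl1*. The rule found 4761 peaks of 80367, which is 5.92% of all listed peaks. The rule used positions only, and no measured value. The lists were made by ATAC-seq, in which the Tn5 transposase inserts sequencing adaptors where chromatin is open, and they hold the peaks that passed the authors' limits in the comparison of GFP high with GFP neg cells. A peak is called opened here when it is in the list of sites more accessible in GFP high cells, and closed when it is in the list of sites less accessible in them.

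Both populations were sorted from lung tumors of *TKO*;*Hes1* GFP/+ animals. Floxed *p130*, *p53* and *Rb* are lost in their lungs after infection with an adenovirus that carries Cre under the CMV promoter, so that Cre is not restricted to a cell type, and GFP is expressed from the endogenous *Hes1* locus. Both groups share the 3 deletions and the reporter allele and are set apart by GFP level, GFP high cells being the non-NE and GFP neg cells the NE population. The labels give 4 pairs of populations from 3 mice, with 1 pair as a technical replicate, and 8 libraries read as 16 runs on 2 lanes. By the study's methods, lung tumors were pooled before digestion, and the cells were stained for the leukocyte, endothelial and erythroid markers CD45, CD31 and TER-119 and for CD24 before sorting. The files hold 1 row per peak for the whole comparison and no value per library, so library depth is unknown, no value below has an SD or an n, and no test over mice could be made. Shares of peaks are given with Wilson intervals at a confidence level of 95%, which cover counting error only, since peaks are not replicates of a condition.

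The labels were checked at the start sites of known markers. Of 10 neuroendocrine genes, 8 had a closed peak within 1 kb of a start site, among them *Chga*, *Chgb* and *Insm1*, and 0 had an opened one. Of 11 non-neuroendocrine and club cell genes found in the annotation, all 11 had an opened peak there, *Hes1*, *Yap1* and *Scgb1a1* among them, and 0 had a closed one. Among the markers of other cell types that a tumor could hold, 1 of 8 leukocyte genes (*Cd68*), 1 of 6 endothelial genes (*Kdr*) and 1 of 7 fibroblast genes (*Col1a1*) had an opened peak, and 0, 1 (*Tek*) and 1 (*Col1a2*) a closed one. Whether such cells contribute to the peaks below was not tested.

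Genes of this size are mostly intron. Many encode adhesion molecules, channels and scaffolds of neurons and of other excitable or secretory cells, and several lie at common fragile sites, where replication is late and chromosomes break under replication stress. Long introns can hold many enhancers, for the host gene or for a neighbour, and a peak inside a gene therefore does not say which gene it acts on. Neuroendocrine cells share part of the gene expression program of neurons, including synaptic and secretory genes.

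The central 200 bases of 11 peaks are printed as they stand in the reference, to show what such sites look like. They are the opened and the closed peak with the highest mean normalized count in each of the 4 genes with the most peaks, and the 2 highest of each direction overall. The mean normalized count is the authors' mean over all libraries of the reads in a peak divided by size factors. Sequences are of the plus strand of mm10, 5′ to 3′, and capitals mark matches to any of 12 motifs, which are spelled out with the motif counts. All 11 windows lie in introns of their host. The 5 opened windows are these.
Gm20388 opened peak at chr8:120416733-120416932: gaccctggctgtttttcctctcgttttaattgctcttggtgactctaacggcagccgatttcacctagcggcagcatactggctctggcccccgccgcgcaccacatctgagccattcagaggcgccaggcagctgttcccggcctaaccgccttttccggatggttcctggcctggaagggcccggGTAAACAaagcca
Gm20388 opened peak at chr8:122294400-122294599: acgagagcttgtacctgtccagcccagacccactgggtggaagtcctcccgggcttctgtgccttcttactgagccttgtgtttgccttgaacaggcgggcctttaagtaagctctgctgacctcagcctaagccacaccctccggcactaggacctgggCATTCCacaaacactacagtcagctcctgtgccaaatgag
Fgfr2 opened peak at chr7:132895064-132895263: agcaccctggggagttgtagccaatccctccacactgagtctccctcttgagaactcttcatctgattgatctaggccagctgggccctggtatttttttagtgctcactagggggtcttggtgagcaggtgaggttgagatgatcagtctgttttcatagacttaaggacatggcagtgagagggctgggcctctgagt
Gm37240 opened peak at chr3:85606999-85607198: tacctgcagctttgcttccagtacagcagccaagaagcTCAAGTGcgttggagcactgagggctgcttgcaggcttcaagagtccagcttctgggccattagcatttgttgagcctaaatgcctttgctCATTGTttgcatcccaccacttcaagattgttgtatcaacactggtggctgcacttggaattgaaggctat
Nav2 opened peak at chr7:49332670-49332869: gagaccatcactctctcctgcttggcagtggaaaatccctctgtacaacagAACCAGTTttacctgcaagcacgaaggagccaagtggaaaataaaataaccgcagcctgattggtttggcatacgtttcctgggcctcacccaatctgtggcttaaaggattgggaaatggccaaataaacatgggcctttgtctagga

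The first, with a mean normalized count of 713, was the highest opened peak and carries a FOX match. It lies 26.7 kb from the nearest start site, and the nearest protein-coding start belongs to *Gse1*, not to the host model *Gm20388*. The second, with a mean normalized count of 572 and a TEAD match, lies 12.4 kb from a start site and nearest to *Zfpm1*. The opened peak of *Fgfr2* (213) holds none of the 12 motifs, that of *Gm37240* (134) holds an NKX2 and a SOX match, and that of *Nav2* (236), 424 kb into the gene, holds a GRHL match. The 6 closed windows follow.
Ccser1 closed peak at chr6:61233755-61233954: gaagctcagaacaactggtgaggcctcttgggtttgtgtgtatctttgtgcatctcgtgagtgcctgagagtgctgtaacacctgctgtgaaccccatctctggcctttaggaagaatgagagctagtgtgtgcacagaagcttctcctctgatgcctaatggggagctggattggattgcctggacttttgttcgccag
Stpg2 closed peak at chr3:139599667-139599866: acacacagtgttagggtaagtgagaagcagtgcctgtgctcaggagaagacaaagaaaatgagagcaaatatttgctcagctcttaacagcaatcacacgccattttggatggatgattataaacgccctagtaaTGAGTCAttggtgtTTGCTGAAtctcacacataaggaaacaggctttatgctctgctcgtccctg
Gm20388 closed peak at chr8:123737167-123737366: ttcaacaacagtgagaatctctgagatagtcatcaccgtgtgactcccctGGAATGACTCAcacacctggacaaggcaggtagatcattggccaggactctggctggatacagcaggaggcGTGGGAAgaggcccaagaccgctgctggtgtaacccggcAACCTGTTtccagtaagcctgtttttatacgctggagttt
Fgfr2 closed peak at chr7:132009034-132009233: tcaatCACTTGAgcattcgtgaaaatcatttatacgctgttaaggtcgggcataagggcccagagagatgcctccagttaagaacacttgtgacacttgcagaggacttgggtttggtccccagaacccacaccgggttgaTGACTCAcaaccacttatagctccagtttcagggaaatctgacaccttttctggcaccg
Gm37240 closed peak at chr3:85845511-85845710: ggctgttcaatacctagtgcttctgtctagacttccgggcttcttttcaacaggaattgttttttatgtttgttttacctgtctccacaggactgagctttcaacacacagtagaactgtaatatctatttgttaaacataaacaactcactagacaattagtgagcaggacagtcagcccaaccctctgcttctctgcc
Nav2 closed peak at chr7:49162217-49162416: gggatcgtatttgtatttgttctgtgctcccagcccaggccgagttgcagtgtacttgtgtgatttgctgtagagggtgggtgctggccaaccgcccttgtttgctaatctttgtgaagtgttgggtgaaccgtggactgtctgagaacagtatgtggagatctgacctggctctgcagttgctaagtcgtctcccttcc

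The closed peak of *Ccser1* had the highest mean normalized count of the closed peaks, 629, and holds none of the 12 motifs in this window. That of *Stpg2* (564) holds an AP-1 and a CEBP match. The closed peak of *Gm20388* (174) holds a TEAD match that overlaps an AP-1 match, then an RBPJ and a GRHL match. An AP-1 and an NKX2 match stand in the closed peak of *Fgfr2* (171), and the closed peaks of *Gm37240* (138) and *Nav2* (143) hold none. The peaks of *Ccser1*, *Stpg2* and *Nav2* lie nearest to a start site of their own host, whereas all those of *Gm20388* and *Fgfr2* shown here lie nearest to a start site of another gene.

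Most peaks inside very long genes were closed in GFP high cells. Of the 4761 peaks, 3329 were closed and 1432 were opened, an opened share of 30.1% (Wilson interval 28.8 to 31.4%), where 50.8% of all 80367 listed peaks were opened and 49.2% were closed. Intragenic peaks of genes of at most 500 kb, chosen by the same distance from start sites, were opened in 50.2% of 32482 cases (49.7 to 50.8%). Listed peaks over 1 kb from start sites and outside protein-coding genes were opened in 46.3% of 30205 cases (45.8 to 46.9%). The intervals of very long genes and of both other classes do not overlap. Fewer cells with an open site and less opening per cell cannot be told apart in such bulk samples.

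A measured limit of the rule concerns 6 gene models that each hold 5 or more whole other protein-coding genes. *Gm20388*, a model of 4.43 Mb on chromosome 8, holds 71 of them, and *Fgfr2*, with an annotated span of 2.96 Mb on chromosome 7, holds 29. *Gm37240* holds 6, and *Gm42416*, *Gm37013* and *Gm37388* hold 36, 33 and 31. The 444 peaks whose longest host is such a model were opened in 68.7% of cases (64.2 to 72.8%). Only *Gm20388* (177 of 228 opened) and *Fgfr2* (88 of 123) held mostly opened peaks, while *Gm37240* (36 of 83), *Gm42416* (4 of 10), *Gm37013* (0 of 6) and *Gm37388* (0 of 6) held more closed ones. Without the 444, the opened share of the remaining 4317 peaks was 26.1% (24.8 to 27.4%). This exclusion was chosen after the values were seen, and values are for all members unless the other 224 genes are named.

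The opened share was lower the longer the host gene, up to 1000 kb. It was 62.3% (58.6 to 65.9%) in genes under 10 kb, 59.0% in genes of 10 to 50 kb, 54.0% in genes of 50 to 100 kb, 49.9% in genes of 100 to 200 kb and 39.6% (38.6 to 40.6%) in genes of 200 to 500 kb. In the 171 genes of 500 to 1000 kb it was 29.4% (27.8 to 31.1%) of 3000 peaks. In the 59 genes over 1000 kb it was 31.2% (29.1 to 33.4%) of 1761 peaks, and without the 6 models 18.8% (16.8 to 21.0%) of 1327 peaks, so the order of the longest classes depends on these models.

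**Figure D1:**
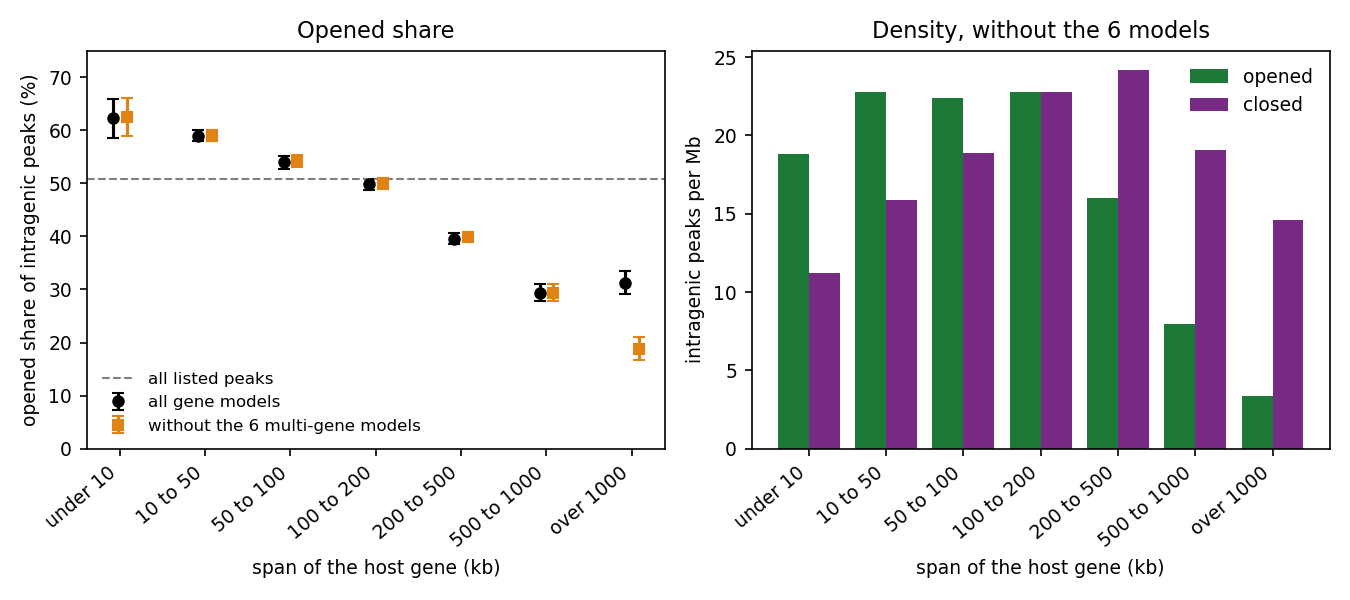
Left, the share of intragenic peaks (over 1 kb from every start site) that were opened in GFP high cells, in percent, by the span of the longest host gene in kb, with Wilson intervals as bars, for all gene models (circles) and without the 6 models that hold 5 or more whole other genes (squares). The dashed line is the share over all listed peaks, 50.8%. Right, opened and closed intragenic peaks per Mb of gene without those 6 models, where opened peaks go from 22.8 per Mb in genes of 100 to 200 kb to 3.37 per Mb in genes over 1000 kb.

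Listed peaks were also sparser in very long genes than in all shorter genes as 1 class, and this held more for opened than for closed peaks. Very long genes held 24.6 peaks per Mb of sequence over 1 kb from start sites, against 41.0 per Mb in shorter genes. Opened peaks stood at 7.41 per Mb against 20.6 per Mb, and closed peaks at 17.2 per Mb against 20.4 per Mb. Closed peaks were sparser still in genes under 10 kb, at 11.3 per Mb, and in genes of 10 to 50 kb, at 15.9 per Mb, and densest in genes of 200 to 500 kb, at 24.2 per Mb. Without the 6 models, genes over 1000 kb held 3.37 opened and 14.6 closed peaks per Mb, and genes of 100 to 200 kb held 22.8 of each. Since the lists hold only peaks past the authors' limits, these densities do not describe all accessible sites.

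Peaks of very long genes lay farther from start sites, at a median of 31372 bp for opened and 41853 bp for closed members against 13090 and 17039 bp in shorter genes. They were also poorer in GC. The opened share of shorter genes varied with both properties, so the shares were compared within strata. At 1 to 5 kb from the nearest start site, 40.4% of 401 members (35.7 to 45.3%) were opened, and 27.9% of 301 (23.1 to 33.2%) in the 224 genes, against 56.2% of 6439 (55 to 57.4%) in shorter genes. At 20 to 50 kb the shares were 29.8% of the members (27.4 to 32.4%), 26.2% of 1162 (23.8 to 28.9%) in the 224 genes and 47.4% of 8686 (46.4 to 48.5%) in shorter genes. At 100 to 200 kb the shares of the 224 and of the shorter genes were 23.6% (20.6 to 26.9%) and 33.9% (31.0 to 36.9%). Over 200 kb, where shorter genes hold only 76 peaks, the order turned, with 27.8% (22.5 to 33.7%) in long genes and 14.5% (8.28 to 24.1%) in shorter ones. With GC content of the central 200 bases between 45 and 50%, 27.7% (25.4 to 30.1%) of the peaks of the 224 genes were opened against 47.7% (46.7 to 48.7%) in shorter genes. Under 40% GC the shares were 22% (18.8 to 25.6%) and 51.8% (49.7 to 53.8%). For all members they were 29.9% (27.6 to 32.3%) at 45 to 50% GC and 23.5% (20.2 to 27.1%) under 40%, and at 60% GC and over the 54.8% of all members (45.7 to 63.6%) overlapped with the 61.9% (59.6 to 64.0%) of shorter genes. The opened share was lower in the 224 long genes than in shorter genes in each of the 6 classes of GC content and in each of the 4 classes of mean normalized count.

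By chromosome, the opened share of all members ran from 13.3% on chromosome 18, with 30 peaks, to 44.5% on chromosome 8, with 553 peaks. Without the 6 models chromosome 8 came to 21.2%, chromosome 7 went from 38.5% to 21.8%, and the highest share was 41.3% on chromosome 1. Chromosome 18 then came to 0% of 20 peaks.

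Of the 230 genes, 215 held at least 1 peak and 15 held 0. The longest genes with none were *Sgcz* (1.14 Mb), a sarcoglycan, *Sntg1* (0.938 Mb), a syntrophin, and *Sugct* (0.838 Mb). A peak that lies in more than 1 long gene, as 45 peaks do, is counted in each, which gives 4812 pairs of peak and gene. Genes with a peak held a median of 19.0. More closed than opened peaks were found in 177 genes and more opened than closed ones in 35, with 3 ties. All peaks were closed in 76 genes and opened in 3.

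Among the 130 genes with 15 or more peaks, the opened share had a median of 21.8%, quartiles of 6.51% and 47.0%, and a range from 0 to 94.5%. In 103 of them it was under the 50.8% of all listed peaks and in 27 over it. Of the 103, 27 had closed peaks only, and in 0 of the 130 were all peaks opened.

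**Figure D2:**
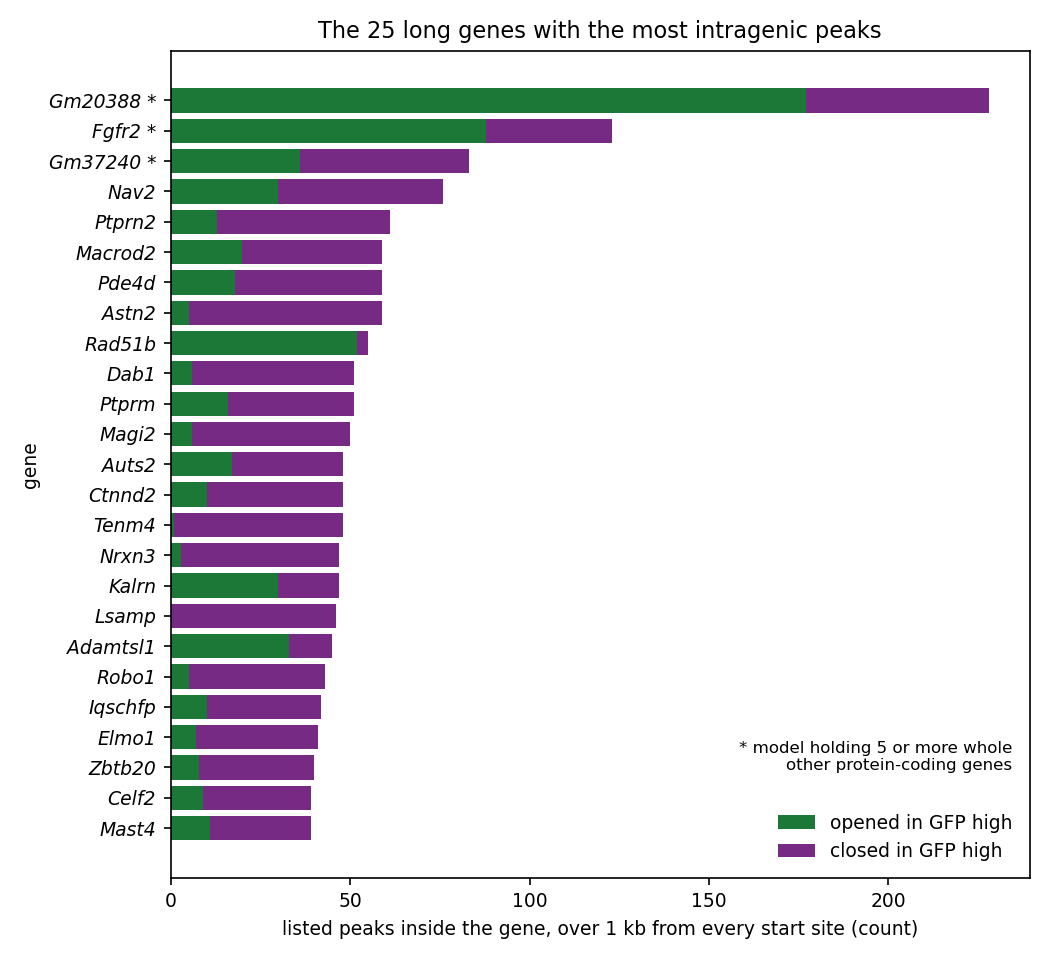
Number of listed intragenic peaks over 1 kb from every start site in each of the 25 long genes with the most, opened (left part of each bar) and closed (right part) in GFP high cells. Asterisks mark the models that hold 5 or more whole other protein-coding genes; *Rad51b* had 52 opened and 3 closed peaks, *Tenm4* 1 opened and 47 closed, and *Lsamp* 0 opened and 46 closed.

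The 12 genes with the most peaks held 955 of the 4812 pairs. After the 3 models *Gm20388* (177 opened, 51 closed), *Fgfr2* (88 opened, 35 closed) and *Gm37240* (36 opened, 47 closed) came *Nav2*, a cytoskeletal regulator of the neuron navigator family, with 30 opened and 46 closed peaks in 0.701 Mb. *Ptprn2*, a phosphatase-like protein of secretory granules, held 13 opened and 48 closed peaks. *Macrod2*, an ADP-ribosyl hydrolase gene at a fragile site, held 20 and 39, and *Pde4d*, a cAMP phosphodiesterase, 18 and 41. *Astn2*, which encodes an astrotactin of neuronal migration, held 5 and 54. *Dab1*, the adaptor of Reelin signalling, held 6 and 45, *Ptprm*, an adhesive receptor phosphatase, 16 and 35, and *Magi2*, a synaptic scaffold, 6 and 44. Among these genes outside the 6 models only *Rad51b*, a recombination repair gene, had more opened than closed peaks, with 52 opened and 3 closed peaks.

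The genes with the most peaks per Mb were *Nav2* with 108, *Rad51b* with 106 and *Elmo1*, an activator of Rac signalling, with 79.2 per Mb. *Elmo1* held 7 opened and 34 closed peaks.

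The 5 highest opened shares among genes with 15 or more peaks began with *Rad51b* (94.5%, 85.1 to 98.1%) and the nuclear receptor gene *Esrrg* (15 of 16 peaks, 93.8%). *Erc2* (13 of 16, 81.2%), which encodes a protein of the presynaptic active zone, the zinc finger factor gene *Mecom* (25 of 32, 78.1%) and the model *Gm20388* (77.6%) followed. The lowest, chosen among the 27 genes with no opened peak by their number of peaks, included *Lsamp* (46 closed), *Ctnna2* (35), *Cntnap2* (33) and *Ryr2* (33). They encode an immunoglobulin-type adhesion molecule of neurons, the neural alpha-catenin, a neuronal adhesion molecule and a calcium release channel.

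Further genes with 15 or more peaks and no opened one follow, most of them named after their values were seen. They include the adhesion genes *Opcml* (31 closed), *Nlgn1* (26), *Cntn4* (23) and *Cntn5* (15), and *Pcdh9* (31). The glutamate receptor gene *Grid1* (32), the guidance receptor genes *Dcc* (20) and *Robo2* (20), and *Nrg1* (23), which encodes a ligand of ErbB receptors, belong to them as well. So do the genes of regulators of splicing, transcription and chromatin *Rbfox1* (26), *Hdac9* (20) and *Npas3* (15), and *Dlgap2* (31), *Syne1* (22) and *Lama2* (15). Also among them are *Lingo2* (29), *Agbl1* (24), *Sorcs1* (24), *Nell1* (19), *Tmem132d* (17) and *Zmat4* (16).

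Of the 27 genes over the share of all listed peaks, these were also named after their values were seen. *Pard3* had 22 opened and 7 closed peaks, *Pard3b* 20 and 7, *Magi1* 22 and 7, and *Lpp* 22 and 16. Of 16 scaffold, polarity and cytoskeletal genes with 15 or more peaks, 6 were over that share and 2 were all closed, and *Magi2* (6 and 44) and *Frmd4a* (7 and 26) were under it. *Adamtsl1* had 33 and 12, *Kalrn* 30 and 17, *Lrmda* 27 and 11, *Rasgef1b* 22 and 9, *Kirrel3* 17 and 7, and *Dmd*, the dystrophin gene, 11 and 5. The receptor phosphatase genes *Ptprk* (12 and 8) and *Ptprg* (9 and 8) were among them, while *Ptprm* and *Ptprn2* were not.

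The genes were grouped by the role of their product, with a gene in 1 role only and without the 6 models. Neurotransmitter receptor genes had the lowest opened share, with 1 opened of 86 peaks (1.16%, 0.206 to 6.30%) in 5 genes, where *Grid1* held 32 closed peaks. Synaptic and immunoglobulin-type adhesion genes had 37 opened of 394 peaks (9.39%, 6.89 to 12.7%). In 15 of their 19 genes with a peak closed peaks were in the majority, as in *Nrxn3* (3 opened, 44 closed) and *Lsamp*, and in 3 opened ones were. *Kirrel3* held 17 of the 37 opened peaks, and without it the share was 5.41%. Axon guidance and teneurin genes had 23 opened of 226 (10.2%, 6.88 to 14.8%), with *Tenm4* at 1 opened and 47 closed and *Robo1*, the Slit receptor, at 5 and 38.

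Cadherin, protocadherin and catenin genes were opened in 38 of 206 peaks (18.4%, 13.7 to 24.3%), with *Ctnnd2* at 10 opened and 38 closed. Ion channels and their partners were opened in 50 of 254 (19.7%, 15.3 to 25%), and all 15 genes had more closed than opened peaks. Within this group *Ryr2* had none opened and *Cacna1c*, the L-type calcium channel, 16 opened and 19 closed. Genes at common fragile sites were opened in 54 of 267 (20.2%, 15.8 to 25.4%), with closed peaks in the majority in all 12 genes, *Macrod2* and *Fhit* (4 opened, 30 closed) included.

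Receptor kinases, phosphatases and their ligands were opened in 64 of 239 peaks (26.8%, 21.6 to 32.7%), and with *Fgfr2* in 152 of 362 (42.0%, 37.0 to 47.1%), so this share rests on how far the *Fgfr2* model is taken to reach. Second messenger enzymes were opened in 31 of 115 (27%, 19.7 to 35.7%), where *Plcb1*, a phospholipase C, held 5 opened and 26 closed peaks. Scaffold, polarity and cytoskeletal proteins were opened in 184 of 577 (31.9%, 28.2 to 35.8%). Matrix, proteoglycan and sulfation genes were opened in 37 of 110 (33.6%, 25.5 to 42.9%), and 33 of these 37 lie in *Adamtsl1*, without which the share was 4 of 65 (6.15%). *Gpc6*, a glypican gene, holds those 4, beside 26 closed. Transcription and RNA regulators were opened in 176 of 459 (38.3%, 34.0 to 42.9%), with *Auts2* at 17 opened and 31 closed and *Zbtb20* at 8 and 32. The intervals of the 3 lowest groups do not overlap with those of the scaffold and the regulator groups. These intervals take each peak as independent, although neighbouring peaks of a gene are often alike. The 88 genes outside these roles were opened in 440 of 1423 (30.9%, 28.6 to 33.4%). Every group was under the 50.8% of all listed peaks.

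Long genes with only closed peaks at their own start sites, which the rule left out, held mostly closed intragenic peaks, and those with only opened ones there were divided. Of the 209 genes with a peak outside the 6 models, 108 had only closed listed peaks within 1 kb of their own start sites, and their intragenic peaks were opened in 253 of 2313 cases (10.9%, 9.73 to 12.3%). In all 108, closed intragenic peaks outnumbered opened ones. The 28 genes with only opened peaks at their start sites had 374 opened of 694 intragenic peaks (53.9%, 50.2 to 57.6%), an interval that holds the 50.8% of all listed peaks. Among these, opened peaks were in the majority in 13 genes, *Rad51b*, *Mecom*, *Pard3* and *Lrmda* among them, and closed peaks in 15. Closed majorities under an opened start site were widest in *Gmds* (2 opened, 27 closed) and *Frmd4a* (7 and 26), and *Wwox*, a fragile site gene, had 9 and 23. The 10 genes with peaks of both directions at their start sites had an opened share of 45.1% (39.8 to 50.5%), and the 63 genes with none listed there 35.3% (32.4 to 38.2%). *Esrrg*, *Erc2* and *Adamtsl1* were opened genes of this last kind. In *Adamtsl1*, however, an opened peak counted as intragenic lay 256 bp from the annotated start of the gene. It lay 268666 bp from the nearest start site of a transcript in the basic annotation.

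**Figure D3:**
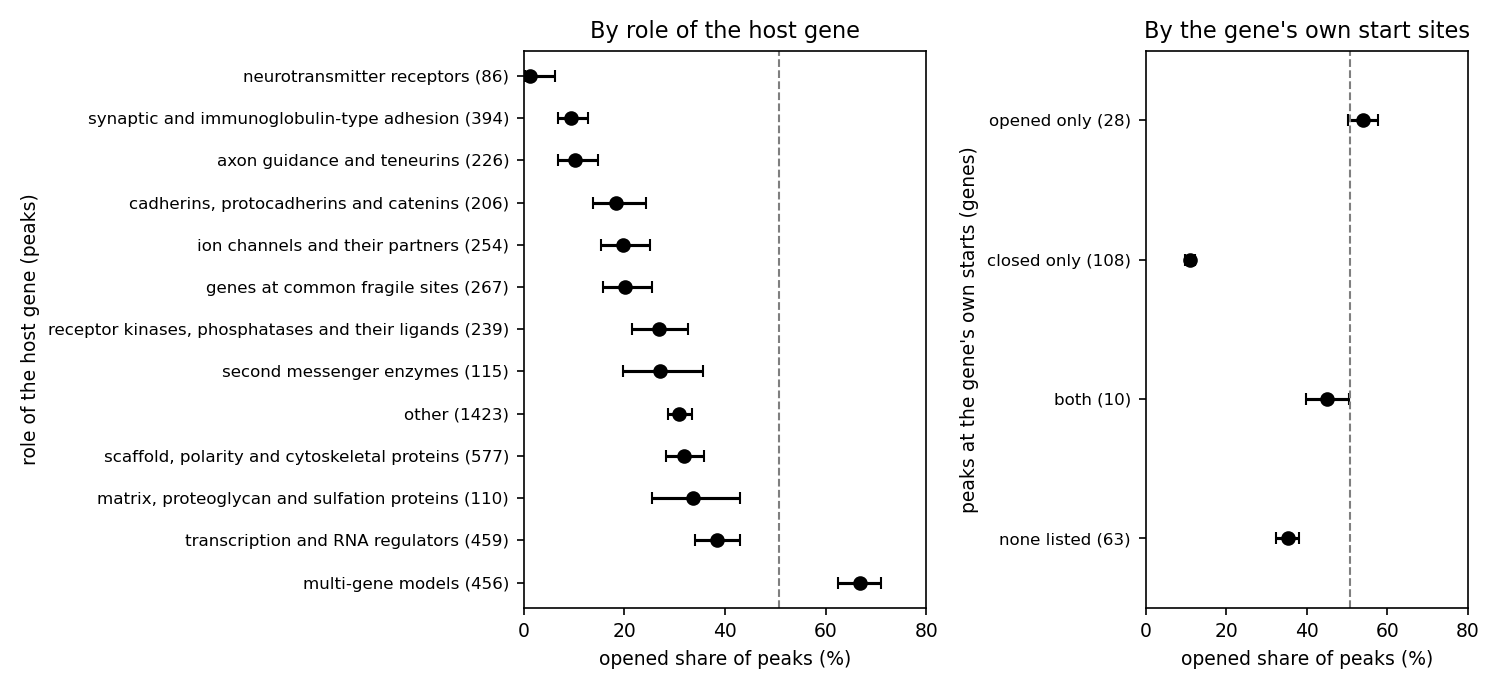
Opened share of the intragenic peaks of long genes in percent, with Wilson intervals as bars. Left, by the role of the host gene, with the number of peaks in brackets and the 6 models as a class of their own; right, by the direction of the listed peaks within 1 kb of the gene's own start sites, with the number of genes in brackets. The dashed line is the 50.8% of all listed peaks, and genes with only closed peaks at their start sites stand at 10.9%.

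Opened and closed peaks were about equally frequent in the first part of the gene. Of the opened peaks 33.4% (31.0 to 35.9%) and of the closed peaks 33.5% (31.9 to 35.1%) lay in the first of 3 equal parts of the gene, and 36.8% (34.3 to 39.3%) and 33.7% (32.1 to 35.3%) in the last. Exons of the host held 13 opened and 47 closed peaks, 0.908% and 1.41% of each. Intron 1 of the host's longest transcript held 27.2% (24.9 to 29.5%) of the opened and 21.8% (20.5 to 23.3%) of the closed members. This order rests on the 6 models, since in the 224 genes that intron made up 19.8% of the span and held 18.5% (16.3 to 20.8%) of the opened and 20.8% (19.4 to 22.2%) of the closed peaks. The nearest protein-coding start site was that of the host for 70.4% of all members. Those members were opened in 26.3% of cases (24.8 to 27.8%) and the members nearest to another gene's start in 39.1% (36.6 to 41.7%). In the 224 genes, where 76.8% of the 4317 peaks lay nearest to the host's start, the shares were 25.9% (24.4 to 27.4%) and 26.9% (24.2 to 29.7%), with overlapping intervals. Of all members, 959 (20.1%) lay over 100 kb from every start site, and the farthest lay at 584 kb. Some of the 959 lay nearer to the annotated start of their host gene. An opened peak of *Adamtsl1*, for example, lay 45787 bp from it and 314197 bp from the nearest start site.

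**Figure D4:**
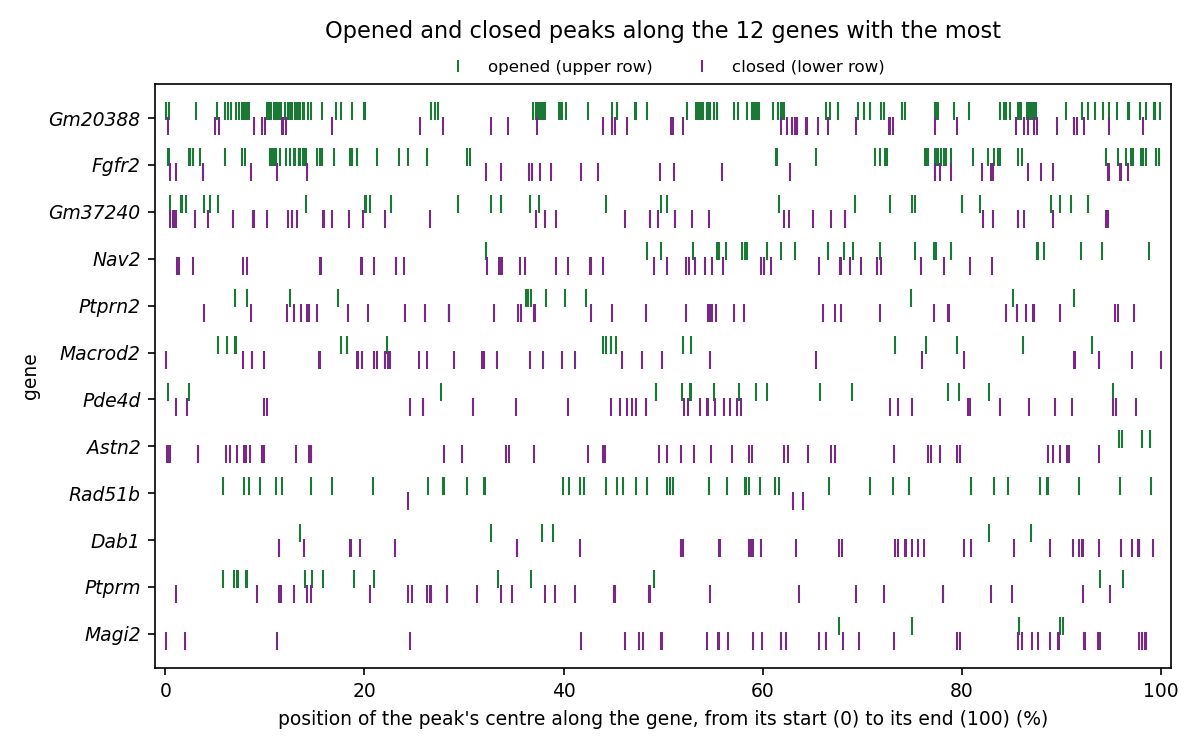
Position of each listed peak along the 12 long genes with the most, as the percentage of the way from the start to the end of the gene, with opened peaks in the upper and closed peaks in the lower row of each gene. The 5 opened peaks of *Astn2* all lie between 95.8% and 98.9% of the way, and the 54 closed peaks between 0.171% and 93.8%.

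Neighbouring peaks of a gene had the same direction more often than the mix of directions in the gene would give. Of 4549 pairs of neighbours in all long genes, 78.7% (77.5 to 79.9%) were alike, where the mix gives 71.3%. Genes whose peaks all have 1 direction add pairs that are alike by construction. In the genes that held both directions, a choice made after the values were seen, 73.1% of 3591 pairs (71.6 to 74.5%) were alike, where the mix gives 63.6%. There, neighbours up to 5 kb apart were alike in 82.2% of pairs (79.8 to 84.3%), those 5 to 20 kb apart in 70.0% (67.3 to 72.6%), those 20 to 100 kb apart in 68.3% (65.5 to 70.9%) and those over 100 kb apart in 69.9% (63.3 to 75.7%), so the share was highest up to 5 kb and the intervals of the wider spacings overlap. In genes of 100 to 500 kb with both directions the share was 65.5% (64.6 to 66.3%), where the mix gives 57.2%. In *Astn2*, 54 closed peaks over 958 kb followed each other without an opened one, and the 5 opened peaks all lay beyond 95.8% of the way along the gene. In *Nrxn3* the 3 opened peaks lay between 15% and 16.3% of the way, and 34 closed peaks in a row covered 1237 kb. The 4 opened peaks of *Gpc6* lay between 86.6% and 88.0%, and the 5 of *Robo1* between 75.6% and 93.6%. The longest rows of opened peaks outside the 6 models were 28 peaks over 183 kb in *Rad51b* and 19 peaks over 455 kb in *Adamtsl1*. In *Nav2* the 30 opened peaks lay from 32.2% of the way onwards with a median at 66.6%, and the 46 closed peaks had a median at 43.3%. In *Lsamp* the 46 closed peaks covered 2144 kb and in *Cntnap2* the 33 closed peaks 2162 kb, from near the start of the gene to near its end.

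Opened members were wider and higher than closed ones. The median width was 275 bp (order-statistic interval 266 to 285 bp) for opened and 246 bp (241 to 251 bp) for closed members, and the median of the authors' mean normalized counts was 28.9 (26.9 to 31.5) and 22.7 (21.6 to 23.6). A mean normalized count over 100 was reached by 14.1% of the opened and 6.97% of the closed members. In shorter genes the medians were 268 and 246 bp, and 31.6 and 26.3. The opened share of members was higher among higher peaks, from 26.3% (24.4 to 28.3%) at mean normalized counts up to 20 to 46.5% (41.9 to 51.2%) over 100, in the 224 genes from 23.2% to 40.7% (35.9 to 45.8%), and in shorter genes from 47.0% to 63.9%. Because the mean normalized count is taken over both groups, it does not separate depth from the difference between the groups. The median GC content of the central 200 bases was 48.0% for opened and 46.5% for closed members, against 40% in windows of the same genes without a listed peak.

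The motifs were searched as exact strings on both strands of the central 200 bases, the windows of which 11 are printed above. They were AP-1 (TGANTCA), bound by Fos and Jun dimers, TEAD (CATTCC), FOX (TGTTTAC), NKX2 (CACTTGA), GRHL (AACCNGTT), a CTCF core (CCACNAGG), RBPJ (GTGGGAA), RUNX (TGTGGTT), CEBP (TTGCNNAA), POU (ATGCAAAT) and SOX (ACAATG), and the NFI palindrome, TTGGC and GCCAA with 5 bases of any kind between. The open bases of the NFI palindrome can hold a TEAD or a SOX match, and in no other pair of families can a match lie whole within another. As background, all 952100 windows of 200 bases in the 230 genes that hold no part of a listed peak were searched in the same way.

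Closed and opened members differed by the most percentage points in AP-1, TEAD, SOX and RUNX strings. AP-1 matches stood in 25.3% of the closed (23.8 to 26.8%) and 11.5% of the opened members (9.91 to 13.2%), and in 6.21% of the background windows. TEAD matches stood in 20.9% of the opened (18.9 to 23.1%) and 8.71% of the closed members (7.80 to 9.72%), with 11.1% in the background, so the closed members were under it. RUNX matches stood in 10.4% of the opened (8.93 to 12.1%) and 3.94% of the closed members (3.33 to 4.65%), with 4.30% in the background. SOX matches stood in 19.8% of the closed (18.5 to 21.2%) and 10.2% of the opened members (8.73 to 11.9%), with 13.5% in the background. At the GC content of the members the background for SOX was 11.2% for closed and 10.4% for opened members, so that the opened members lay at its level. The *Stpg2* and *Fgfr2* closed windows printed above each hold an AP-1 match, and the *Gm20388* opened window nearest to *Zfpm1* a TEAD match.

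**Figure D5:**
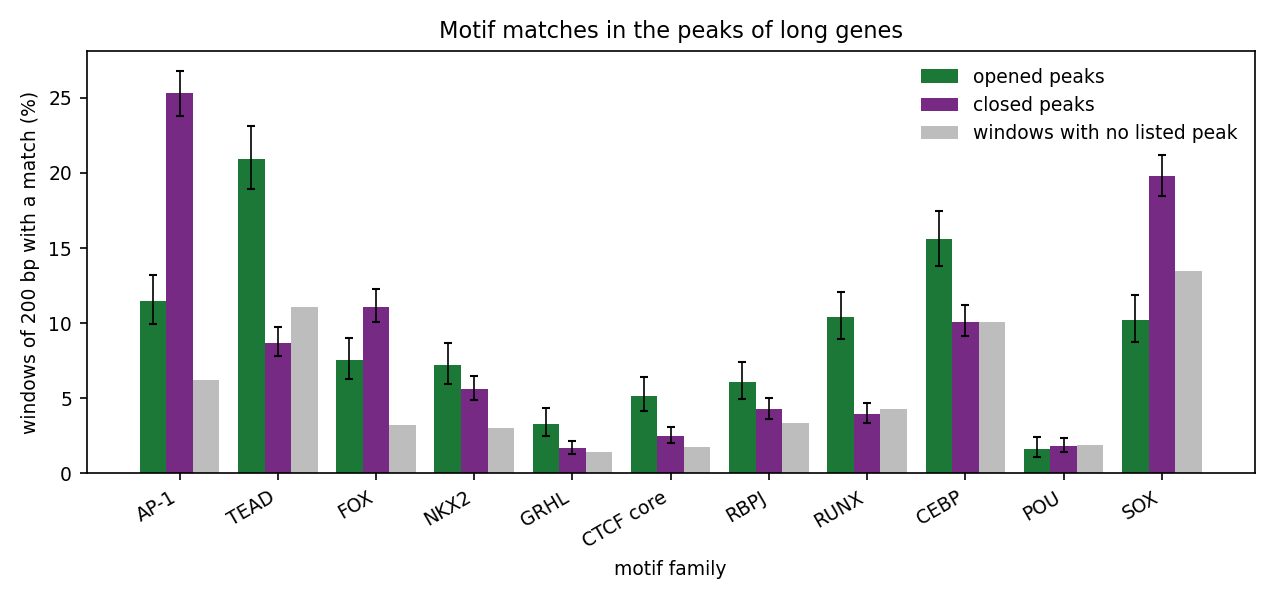
Share of windows of 200 bp with an exact match to each motif family, in percent, for opened and closed peaks of long genes (bars with Wilson intervals) and for all windows of the same genes without a listed peak. AP-1 stands at 25.3% in closed and 11.5% in opened peaks, TEAD at 8.71% and 20.9%, and NFI, with 5 matching members in all, is left out.

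FOX matches were over the background of 3.20% in both directions, with 11.1% (10.1 to 12.3%) of the closed and 7.54% (6.28 to 9.03%) of the opened members. CEBP matches stood in 15.6% (13.8 to 17.5%) of the opened and 10.1% (9.14 to 11.2%) of the closed members, CTCF core matches in 5.17% (4.14 to 6.44%) and 2.46% (1.99 to 3.05%), and GRHL matches in 3.28% (2.48 to 4.34%) and 1.68% (1.30 to 2.18%). The intervals of opened and closed members overlapped for NKX2 (7.19 and 5.62%), RBPJ (6.08 and 4.27%, overlapping by their ends) and POU (1.61 and 1.83%). The NFI palindrome matched 1 opened and 4 closed members, too few to compare. Weighted to the GC content of the members, the background gave 5.77% for AP-1 in closed and 12.4% for TEAD in opened members, so the members stood at 4.38 and 1.68 times that level.

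For AP-1 and TEAD the shares lay close to those of shorter genes. In intragenic peaks of genes of at most 500 kb, AP-1 stood in 26.6% of the closed (25.9 to 27.2%) and 11.6% of the opened peaks (11.1 to 12.1%), and TEAD in 8.72% and 20%. SOX matches in closed members, 19.8%, lay over the 17.0% (16.4 to 17.6%) of closed peaks in shorter genes, and CTCF core matches in closed members, 2.46%, under the 3.61% (3.33 to 3.90%) there. CEBP matches in closed members, 10.1%, lay over the 8.29% (7.88 to 8.73%) there. With C or G at the open base, the AP-1 string stood in 19.1% (17.8 to 20.5%) of the closed and 8.31% (6.99 to 9.85%) of the opened members, and with A or T in 7.48% (6.63 to 8.42%) and 3.42% (2.60 to 4.49%), so both forms were more frequent in closed members. Of the 944 AP-1 matches in closed members, 37.2% (34.2 to 40.3%) lay within 25 bp of the peak's centre, where even spacing gives 25.8%, and of the 174 in opened members 41.4% (34.3 to 48.8%). For TEAD, where even spacing gives 26.2%, the share was 32.2% (27.4 to 37.3%) of the matches in opened and 25.7% (21.1 to 30.8%) of those in closed members. FOX matches lay there in 35.6% (31.0 to 40.5%) of closed and 31.9% (24.1 to 40.8%) of opened cases, and RUNX matches in 23.7% (17.4 to 31.5%) and 25.5% (19.4 to 32.6%). Of these FOX and RUNX intervals, all but that of FOX in closed members hold the 25.8% of even spacing. Across the roles, the AP-1 share of the closed members ran from 20.7% in axon guidance and teneurin genes to 29.8% in second messenger enzymes, and in every role but cadherins it was over that of the opened members, of which some roles hold few.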

How the data were processed

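ATAC-seq libraries of sorted GFP high and GFP neg SCLC cells were compared. The authors aligned reads to mm10 with Bowtie2 2.3.4.1, called narrow peaks with MACS2, merged them over samples and compared the groups with DESeq2 1.28.1. The deposited signal per peak is their mean normalized count over all libraries (baseMean). The files also hold the authors' fold changes, standard errors, Wald statistics and p-values, which were not used here. Whether lanes or the repeated pair were summed is not given in the sources used here.

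Peak positions are 1-based on mm10. All peaks lay within the chromosomes of GRCm38.p6 (RefSeq), which gave the sequences, and genes came from GENCODE basic M21. A peak was given to its longest host gene, except in counts per gene and per role. Densities are per Mb over 1 kb from start sites for length classes and per Mb of span for single genes. Motif background windows excluded listed peaks and start sites. Computations used scipy 1.17.1, pandas 2.3.3 and numpy 2.4.6, with matplotlib 3.10.9 for plots, under Python 3.11.15, and were tested on simulated data.

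Named genes were the 12 with the most members, the 5 highest and 5 lowest opened shares among genes with 15 or more, the 3 densest, the 2 with the most members in each role and the 3 longest with none. Some genes that this rule names are not reported here. Members and lists were chosen with earlier results of these data known. Of the up to 300 bases allowed, the central 200 were printed, and peaks of chromosome 18 were left out of the choice. Alternatives are given with the limits.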

Additional observations from a re-analysis of the deposited data

How the results depend on the processing

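No paired analysis was possible because the files hold no value per sample, and no replicate could be left out for the same reason. The opened share of the members, 30.1%, stayed under that of all listed peaks in every alternative run. It was 33.7% with genes over 300 kb, 28.1% with genes over 750 kb, 28.2% at over 10 kb from start sites, 41.0% at a mean normalized count of 50 or more (all listed peaks 64.4%), 27.7% without *Gm20388*, 27.6% without peaks that also lie in another protein-coding gene and 26.1% without the 6 models, the last chosen after seeing the data. The density of 24.6 members per Mb was 5.98 per Mb at a mean normalized count of 50 or more, where fewer peaks remain. The share of like neighbours, 78.7%, was 71.5% at that count and 76.1% with peaks of a list within 500 bp merged. Searching the whole peak gave AP-1 in 16.4% of opened and 29.2% of closed members and TEAD in 27.4% and 11.5%, since more bases are searched. The other 37 of these 51 alternative values moved by less than their interval, or by under 1.5 times for the density, and of 60 for the other motifs 20 moved beyond it. Peaks that did not pass the authors' limits were not analysed here, and without depth per library no limit of detection can be given.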
